A study of Mus musculus with 11 samples.

Results

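The ribosome of the cytosol is built from ribosomal RNA and a fixed set of ribosomal proteins, named Rps in the small subunit and Rpl in the large one. The genes of these proteins were taken as all protein-coding rows of the deposited count table whose symbol is Rps or Rpl followed by a digit, together with Rpsa, Rplp0, Rplp1 and Rplp2, without pseudogene rows, kinases of the Rps6k family and paralogs whose symbol carries an added l. This gave 79 genes of 46983 in the table, 33 of the small and 46 of the large subunit by their names, and all 79 passed the filter on low counts that left 19366 genes for testing. The rule also took Rps19bp1, which encodes a protein that binds Rps19 and is no subunit, and Rps27rt, a retrogene copy of Rps27. It left out Fau, whose ribosomal protein is made as a fusion with a ubiquitin-like protein, and Rack1, a small subunit protein with a name of its own.

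Aortic valves of wild type mice were compared 48 hours after surgery, each library holding the valve of 1 mouse. In the injured groups a wire passed in vivo had damaged the valve endothelium, and sham surgery was the control. Among the 11 libraries, the young mice of 3 to 4 months of age gave 3 sham and 3 injured valves, and the aging mice of 16 to 18 months gave 3 sham and 2 injured valves. All mice had undergone surgery, and unoperated valves were not analysed here.

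As background, cells coordinate the production of ribosomal proteins with that of ribosomal RNA, and growing or dividing cells make more ribosomes. Much of this control acts on translation and not on mRNA level: most ribosomal protein mRNAs begin with a run of pyrimidines at their capped end, the terminal oligopyrimidine (TOP) motif, through which LARP1 and the mTORC1 kinase adjust their translation. A measurement of mRNA, as here, does not see that layer. Several ribosomal proteins also have roles apart from the ribosome, and loss of a single copy of some of them causes Diamond-Blackfan anaemia.

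The start of the transcript is the feature that sets these mRNAs apart in sequence. RefSeq starts (build GRCm38.p6) were found for 59 of the 79 genes. A run of at least 7 bases that are all C or T, holding the annotated first base or beginning within 5 bases of it on the transcribed strand, stood at a start of 23 of the 59 genes (39.0%), against 10.8% of all 27025 genes in the same table. An annotated start can lie some bases away from the start used in the valve, and no run in the window says only that these letters were not found there. The windows below hold 10 bases before the annotated first base and 20 from it onward, with the pyrimidine run in capitals, for genes that recur in the results. The first 7 carry a run and the last 3 do not.
Rplp2 (chr7:141447641-141447670, plus strand): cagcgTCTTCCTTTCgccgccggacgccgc
Rps6 (chr4:86857348-86857377, minus strand): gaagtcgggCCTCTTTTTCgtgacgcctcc
Rps26 (chr10:128626487-128626516, minus strand): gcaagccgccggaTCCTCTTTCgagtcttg
Rpl13a (chr7:45128726-45128755, minus strand): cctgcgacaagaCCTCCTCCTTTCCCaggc
Rpl38 (chr11:114668570-114668599, plus strand): aagcctcgTTCTTTCCCCgttctcttcggt
Rpl28 (chr7:4792955-4792984, plus strand): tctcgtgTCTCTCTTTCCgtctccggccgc
Rps27 (chr3:90213629-90213658, minus strand): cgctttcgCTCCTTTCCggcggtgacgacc
Rpsa (chr9:120127756-120127785, plus strand): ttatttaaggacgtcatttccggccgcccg
Rplp0 (chr5:115559457-115559486, plus strand): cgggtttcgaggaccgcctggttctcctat
Rps27rt (chr9:114982720-114982749, minus strand): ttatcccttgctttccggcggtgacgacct
The windows of Rps27 and of its copy Rps27rt share a run of 19 identical bases. Reads from such near-identical copies, and from the many processed pseudogenes of this family, may have been counted for either gene, with a counting rule that is not given in the sources used here. The 271 rows named as ribosomal protein pseudogenes held 2.67 to 3.28 counts per 100 counts of the 79 genes. The ratio of young injured to young sham means of the summed genes was 1.09 without these rows and 1.08 with them.

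Depth was ample for these genes. Libraries held 27124000 to 36353474 counts, and a gene of the 79 had between 184 and 29057 counts in a library, with a median of 6356. Together they took 1.56% to 2.12% of the counts. Intervals and tests below therefore rest on the spread between libraries and not on counting error, and 2 or 3 mice a group limit them. With 1 library per mouse, a difference between mice cannot be told apart from a difference in library preparation. The valve was sampled whole: markers of fibroblasts and interstitial cells summed to 10131 to 21941 CPM (counts per 1e6 counts of the library, after scaling between libraries by the TMM method of edgeR), endothelial markers to 242 to 707 CPM, and markers of heart muscle to 7669 to 37080 CPM. Smooth muscle markers summed to 4792 to 20986 CPM. In such bulk tissue, fewer cells of a type and less RNA per cell cannot be told apart. Young sham 1, aging injured 1 and aging injured 2 had counts in 18641, 18642 and 19015 genes, against 20411 to 22533 in the others. No same-group pair looked like 1 library deposited more than once, since the chi-square of the counts per degree of freedom was 20.9 to 228 over the 10 pairs.

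The ribosomal protein genes were among the most abundant mRNAs of the valve. In the deposited RPKM values (reads scaled by gene length and library size), which allow levels to be compared between genes, the median level over the 11 libraries ran from 10.3 to 1067 RPKM, with a median of 152 RPKM over the 79 genes against 6.86 RPKM over all 13526 genes of that table. They made up 17 of the 100 genes with the highest median RPKM and 54 of the top 500. The order of the 79 genes by RPKM was nearly the same in every library, with rank correlations of 0.958 to 0.998 over the 55 pairs of libraries, which share the same gene lengths.

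Rplp1, a protein of the large subunit's lateral stalk that recruits translation factors, stood first at 1067 RPKM (lowest library 815 RPKM, highest 1447 RPKM). Rps3a1, a small subunit protein, followed at 559 RPKM and Rpl4, a core protein of the large subunit, at 534 RPKM. At the other end were Rps19 at 21.9 RPKM, Rps15a at 17.5 RPKM and Rps19bp1, the binding protein and not a subunit, at 10.3 RPKM. In RPKM, Rplp1 lay far above its stalk partner Rplp2 at 96.9 RPKM. These levels depend on the gene length used: the length implied by counts and RPKM together was 0.646 to 7.29 times that of the principal GENCODE transcript, with a median of 1.86 over 74 genes. Dividing the median CPM by the transcript length instead put Rplp1 first again, at 953 CPM per kilobase, and Rps19bp1 last at 9.27 CPM per kilobase, and moved Rplp2 to 404 CPM per kilobase. It placed Rps3a1 at rank 5, Rpl4 at rank 11 and Rps15a at rank 73 of the 74 genes. Rps19, whose implied length was the 7.29 times above, moved to rank 65 at 146 CPM per kilobase. The places of these genes thus depend on the length used.

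Of the 79 genes 0 passed the quasi-likelihood F test of edgeR in any comparison, whether a call needed a p under 0.1 after adjustment over all genes (Benjamini-Hochberg) as well as a fold over 2, or only the adjusted p. Among all genes tested, the share called under the first rule was 0.418% for injury in young valves, 0% for injury in aging valves, 0.0258% for age in sham valves, 0.062% for age in injured valves and 0% for the injury by age interaction. With the adjusted p alone the shares were 0.687%, 0%, 0.0258%, 0.0671% and 0%. A count of 0 among 79 genes is close to what those shares would give. At an unadjusted p under 0.05 edgeR counted 3, 6, 0, 7 and 7 of the 79 genes in the same order of comparisons, against 9.19%, 8.83%, 9.19%, 12.5% and 7.86% of all genes. DESeq2 gave 0 past the adjusted p in all 5 comparisons with 4, 8, 0, 8 and 7 at the unadjusted p, against 10.9%, 10.7%, 11.0%, 14.8% and 8.995% of all genes. With limma-voom 0 passed as well, with 5, 9, 0, 10 and 7 at the unadjusted p against 11.2%, 8.61%, 10.2%, 12.4% and 8.49% of all genes.

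With a spread assumed equal in all 4 groups, the intervals bounded the changes for most of these genes. Each interval covers 1 gene by itself and not the 79 together. Between the 2 aging injured libraries 4 genes differed by more than 1 log2 unit, so the assumption is weakest for that group. For injury in young valves the 95% intervals of all 79 genes lay within 2-fold in either direction, from -0.78 to 0.86 on the log2 scale at their extremes. The same held for all 79 in the comparison of ages among sham valves, and for 77 of 79 in both comparisons that use the 2 aging injured libraries. For the interaction, whose standard error (SE) is larger, 67 of 79 intervals lay within 2-fold. The median SE over the genes was 0.15 for both comparisons of 3 against 3 libraries, 0.17 where the aging injured group entered, and 0.22 for the interaction.

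**Figure D1:**
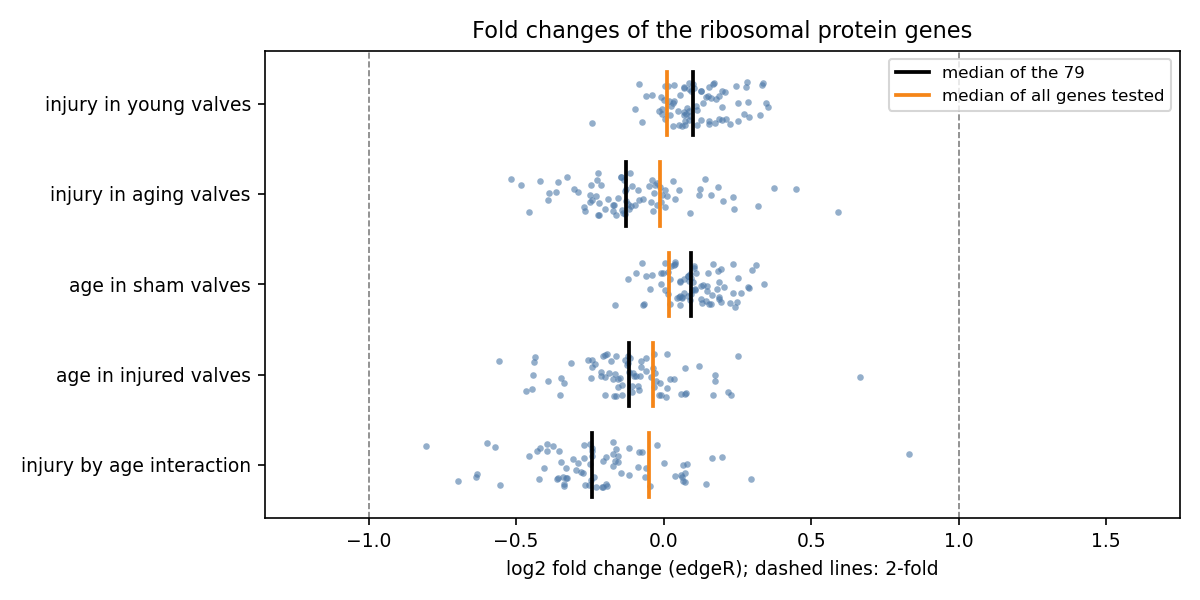
Log2 fold changes of the 79 ribosomal protein genes (points, edgeR) in 5 comparisons, with the median of the 79 as a black bar, the median of all 19366 genes tested as an orange bar and 2-fold marked by dashed lines. All points lie inside 2-fold, and the median of the 79 lies to the right of that of all genes for injury in young valves and age in sham valves and to the left in the other 3 rows.

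In young valves, injury left ribosomal protein mRNAs close to the sham level, with most genes slightly above it. The median log2 fold change of the 79 was 0.10, with 68 genes above 0 and 11 below and a range of -0.24 to 0.35, while the median of all genes tested was 0.01 and 51.5% of them lay above 0. Summed over the 79 genes, the level was 18102, 16700.4 and 16744 CPM in the young sham libraries and 19311, 20140.1 and 16505 CPM in the young injured ones. Young injured 1 and 2 were above every sham library, and young injured 3 was below all of them. The median was 0.07 without young injured 1, 0.03 without young injured 2 and 0.18 without young injured 3. Without the 3 libraries with fewer detected genes it was 0.14.

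The gene with the smallest p for injury in young valves was Rpsa (ENSMUSG00000032518, chr9:120127766-120132369), a small subunit protein that is also known as the precursor of a laminin receptor. Its level was 559.7, 450.4 and 489 CPM in the young sham, 603, 669 and 619 CPM in the young injured, 510.3, 517 and 494 CPM in the aging sham and 614 and 700.0 CPM in the aging injured libraries. Every injured library lay above every sham library of its age, in young and in aging mice alike. The share of all genes with such a separation at both ages was not computed, and Rpsa was named for its small p. The log2 fold change was 0.34 ± 0.13 (SE) in young valves, with a 95% interval of 0.05 to 0.62, and 0.37 ± 0.15 in aging valves, with 0.05 to 0.69. Neither passed after adjustment over all genes (edgeR adjusted p = 0.446 and 0.489), and the interaction was near 0 at 0.04 ± 0.20.

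Rps2, a small subunit protein near the mRNA channel, and Rpl28, of the large subunit, had the next smallest p in young valves. Rps2 was at 375, 330.1 and 367 CPM in the young sham and 414, 451 and 431 CPM in the young injured libraries, a log2 fold change of 0.27 ± 0.12. Rpl28 was at 185, 199.6 and 219 CPM in the young sham, 239.6, 275 and 219 CPM in the young injured, 216, 239.8 and 221 CPM in the aging sham and 198 and 211 CPM in the aging injured libraries. Of the 79 genes only Rpl28 had all injured libraries above all sham libraries in the young and all injured below all sham in the aging mice. In the young the gap was minute, with young injured 3 at 218.923 CPM against young sham 3 at 218.55 CPM. The share of all genes with this opposite pattern was not computed. The fold changes of Rpl28 were 0.28 ± 0.13 and -0.14 ± 0.14 on the log2 scale, and the interaction of -0.42 ± 0.19 did not pass (edgeR adjusted p = 0.633). In all, 8 genes had non-overlapping groups with the injured young valves higher and 0 had them lower, where 9.54% and 5.07% of all genes tested did. They included Rpsa, Rps2, Rpl28, Rpl8, Rpl15, Rps15a and Rps19bp1.

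Below the sham level, Rps27rt had the smallest p at -0.24 ± 0.24, followed by Rps14, a small subunit protein, at -0.10 ± 0.16 and Rpl22 at -0.08 ± 0.17. The groups overlapped for each of these genes.

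**Figure D2:**
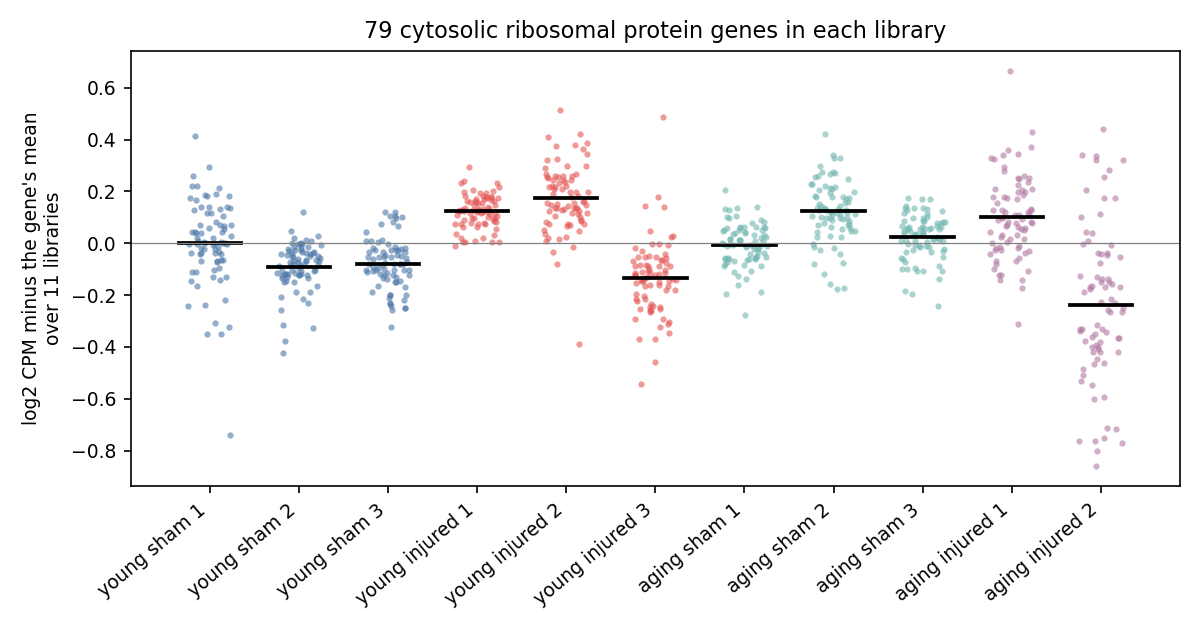
Each of the 79 genes in each library (points), as log2 CPM minus the gene's own mean over the 11 libraries, with black bars for the mean of the 79. Young injured 3 and aging injured 2 lie below the other libraries of their groups, and aging injured 2 has the widest spread of points.

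Libraries of the same group differed from each other. With each gene taken as its log2 CPM minus its mean over the 11 libraries, the mean over the 79 genes was 0.0012, -0.09 and -0.08 in young sham 1 to 3, 0.12, 0.17 and -0.14 in young injured 1 to 3, -0.0047, 0.12 and 0.02 in aging sham 1 to 3, and 0.10 and -0.24 in aging injured 1 and 2. The SD of these means within groups was 0.13, above the size of the median change in each injury and each age comparison. Young injured 3 was below both other young injured libraries for 74 of the 79 genes. Young injured 2 held the highest of the 11 values for 27 genes and aging injured 2 the lowest for 44.

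Heart muscle markers mostly went the other way from these library means, though not in aging injured 2. The mean deviation of 14 cardiomyocyte markers, among them Myh6, Tnnt2 and Actc1, was 0.25, 1.10 and 1.48 in young sham 1 to 3, -0.86, -0.83 and 1.404 in young injured 1 to 3, 0.63, -1.67 and -0.78 in aging sham 1 to 3, and -0.55 and -0.18 in aging injured 1 and 2. The 4 libraries highest in ribosomal protein genes were all below 0 for the muscle markers, and of the 4 lowest only aging injured 2 was not above 0. All 14 markers were detected, and their summed level was 20455 to 36774 CPM in young sham, 8894 to 37080 CPM in young injured, 7669 to 22110.0 CPM in aging sham and 12621 to 14164 CPM in aging injured libraries. Fibroblast and interstitial markers, all 7 detected, summed to 12378 to 13760 CPM in young sham and 17904 to 21941 CPM in young injured libraries, and their part in the result was not tested. Smooth muscle markers, all 4 detected, summed to 6128 to 15415 CPM in young sham and 4792 to 11542 CPM in young injured libraries. In the aging mice they summed to 17175 to 20986 CPM in sham and 14307 to 17249 CPM in injured libraries. The part of smooth muscle was not tested either. With the cardiomyocyte mean as a covariate, an alternative chosen after the data were seen, the median over the 79 genes was -0.0068 for injury in young valves in place of 0.10, and -0.05 for age in sham valves in place of 0.09.

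**Figure D3:**
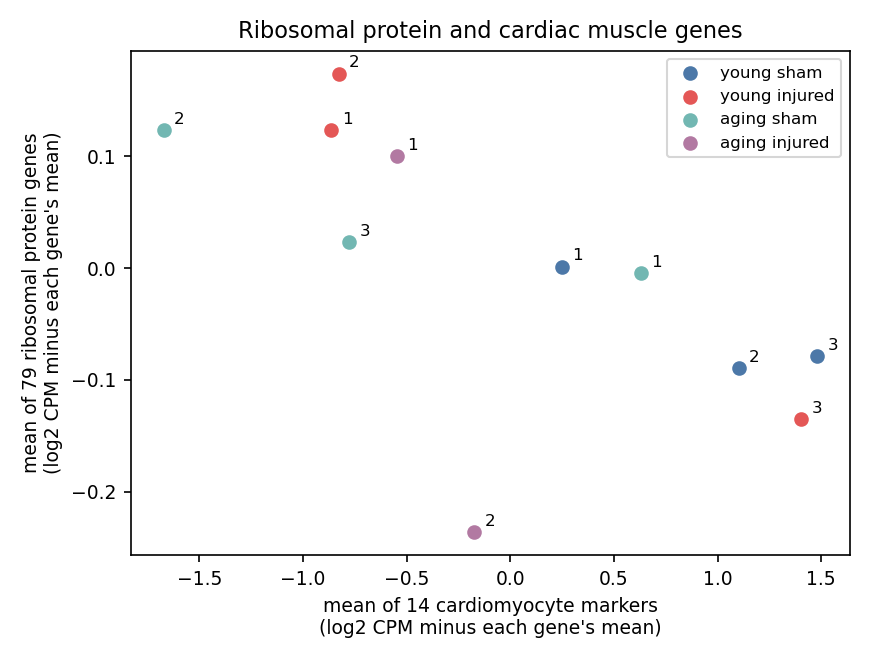
Mean of the 79 ribosomal protein genes (vertical) against the mean of 14 cardiomyocyte markers (horizontal) in the 11 libraries, both as log2 CPM minus each gene's mean. The 4 libraries highest in ribosomal protein genes, at 0.10 to 0.17, all lie left of 0, and aging injured 2 lies below the rest at -0.24.

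Nuclear genes of the respiratory chain, another class of abundant short mRNAs and one rich in heart muscle, were set beside them. Over 82 such genes tested the median log2 fold change was -0.35 in young injury with 4 above 0, 0.03 in aging injury, -0.52 between ages in sham valves with 3 above 0, -0.19 for age in injured valves and 0.37 for the interaction, and 0 of the 82 passed the adjusted p in each. The ribosomal protein genes had medians of 0.10, -0.13, 0.09, -0.12 and -0.24 in the same order.

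In aging valves the 79 genes lay slightly below the sham level on balance, but the 2 injured libraries did not show the same pattern. The median log2 fold change was -0.13 against -0.01 over all genes, with 19 genes above 0 and 60 below and a range of -0.52 to 0.59. The summed level was 17632, 19122 and 18007 CPM in the aging sham libraries, and 19178 CPM in aging injured 1 against 15798 CPM in aging injured 2, the highest and the lowest of the 5. The median was -0.32 without aging injured 1, 0.04 without aging injured 2 and -0.07 without aging sham 2.

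The proteins of the lateral stalk, which is made of Rplp0 as the anchor and of Rplp1 and Rplp2 as its arms, had unlike values in this comparison. Rplp0 (ENSMUSG00000067274, chr5:115559467-115563727) was at 692, 579 and 600.0 CPM in the young sham, 677, 825 and 728 CPM in the young injured, 591, 586 and 577 CPM in the aging sham and 712 and 746 CPM in the aging injured libraries. Both aging injured libraries lay above all aging sham libraries, with a log2 fold change of 0.32 ± 0.15. Rplp1 was at 378, 384 and 446 CPM in the young sham, 509, 631 and 406 CPM in the young injured, 475, 551 and 447 CPM in the aging sham and 502 and 654 CPM in the aging injured libraries, where the aging groups overlapped (0.24 ± 0.20).

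Rplp2 (ENSMUSG00000025508, chr7:141447370-141451585) was at 133, 166 and 183 CPM in the young sham, 209, 216 and 164 CPM in the young injured, 181, 209 and 182 CPM in the aging sham and 166 and 101 CPM in the aging injured libraries. Both aging injured libraries lay below all aging sham libraries, while in young mice young injured 3 was among the sham values. Its log2 fold change was -0.52 ± 0.22 in aging and 0.29 ± 0.20 in young valves, and the interaction was -0.80 ± 0.29 with a 95% interval of -1.45 to -0.16. None passed the adjustment, with edgeR adjusted p of 0.537, 0.725 and 0.567.

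Beside Rpsa, the smallest p above 0 for injury in aging valves belonged to Rps26 and Rps27rt. Rps26 (ENSMUSG00000025362, chr10:128624530-128626506), a small subunit protein at the mRNA exit channel and a Diamond-Blackfan anaemia gene, was at 211, 143 and 172 CPM in the young sham, 187, 228 and 171 CPM in the young injured, 163, 167 and 173 CPM in the aging sham and 222 and 236 CPM in the aging injured libraries. The aging injured libraries were above all aging sham ones, at 0.45 ± 0.18 on the log2 scale, while the young groups overlapped at 0.15 ± 0.16. Rps27rt (ENSMUSG00000050621, chr9:114982371-114982740), the retrogene, was low throughout, at 12.9, 7.18 and 9.93 CPM in the young sham, 10.2, 7.36 and 7.86 CPM in the young injured, 7.95, 9.81 and 8.99 CPM in the aging sham and 15.3 and 11.5 CPM in the aging injured libraries. Its difference in aging valves was 0.59 ± 0.27, with a 95% interval of -0.0023 to 1.18, and reads of Rps27 may be part of its count.

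The smallest p below 0 belonged to Rps27a, Rpl36a and Rplp2. Rps27a (ENSMUSG00000020460, chr11:29545846-29548109) encodes a small subunit protein fused to ubiquitin. It was at 148, 143 and 155 CPM in the young sham, 172, 164 and 147 CPM in the young injured, 154, 172 and 163 CPM in the aging sham and 146 and 86.7 CPM in the aging injured libraries. Aging injured 2 was far below every other library, and aging injured 1 was just under the lowest aging sham library, giving -0.48 ± 0.19 on the log2 scale. Rpl36a, of the large subunit, was at 81.1, 96.0 and 86.8 CPM in the aging sham and 79.8 and 48.5 CPM in the aging injured libraries (-0.46 ± 0.19), again with the larger part of the gap in aging injured 2. Rps19, the first gene linked to Diamond-Blackfan anaemia, was at 98.1, 92.2 and 84.9 CPM in the young sham, 114, 124 and 87.4 CPM in the young injured, 92.3, 116 and 107 CPM in the aging sham and 87.6 and 72.4 CPM in the aging injured libraries. Its log2 fold change was -0.39 ± 0.17 in aging against 0.24 ± 0.15 in young valves, and the interaction of -0.64 ± 0.23 had the smallest p of the 79 without passing (edgeR adjusted p = 0.56).

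Non-overlapping groups were found for 6 genes higher and 14 lower in injured aging valves, against 11.1% and 16.7% of all genes. The 6 were Rplp0, Rpsa, Rps16, Rps26, Rps27rt and Rpl29, and the 14 included Rpl13a, Rpl38, Rps28 as well as Rps27a, Rpl36a, Rplp2, Rps19 and Rpl28.

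**Figure D4:**
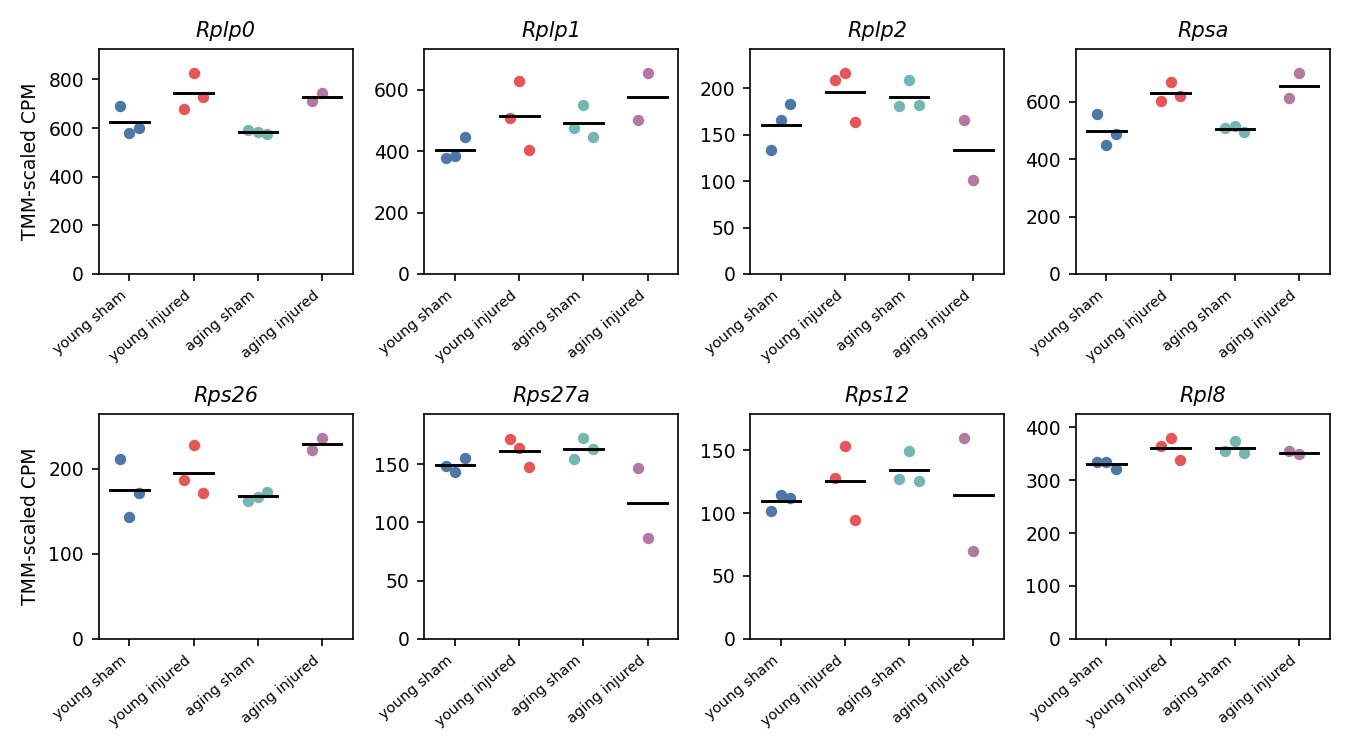
TMM-scaled CPM of 8 ribosomal protein genes in the 11 libraries (points) by group, with bars for group means and each vertical axis starting at 0. Rpsa is higher in every injured than in every sham library of the same age, Rplp2, Rps27a and Rps12 have 1 low aging injured library, and Rpl8 is nearly level.

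The 2 aging injured libraries differed from each other by more than the median difference between groups. Aging injured 1 was above aging injured 2 for 61 genes and below it for 18, with a median difference of 0.39 on the log2 scale and a range of -0.51 for Rpl18 to 1.19 for Rps12. Rps12, Rps25, Rpl39 and Rpl23 differed by more than 1 log2 unit. Rps12 was at 102, 114 and 112 CPM in the young sham, 128, 154 and 94.6 CPM in the young injured, 127, 149 and 126 CPM in the aging sham and 159 and 69.8 CPM in the aging injured libraries, so that the aging injured pair held both the highest and the lowest of the 11 values. Rpl39 was at 61.0 and 28.1 CPM and Rps25 at 211 and 96.5 CPM in the pair, with all 9 other libraries at 42.9 to 68.3 CPM and 150.3 to 197 CPM.

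The spread over genes was also uneven between libraries. The SD of the 79 deviations was 0.30 in aging injured 2, 0.17 in young sham 1 and 0.16 in aging injured 1, the 3 libraries with the fewest genes detected, and 0.06 to 0.14 in the others. In aging injured 2 the mean deviation was -0.36 over the 25 genes with the lowest GC content of the transcript (41.3% to 50%), -0.26 over the middle 24 and -0.10 over the 25 with the highest (53.9% to 60.8%). In aging injured 1 it was 0.16, 0.13 and -0.0030 in the same order. Such trends were not confined to libraries with few genes detected. Over 74 genes the deviation correlated with GC content at -0.456 in aging injured 1 and 0.315 in aging injured 2. The correlation was -0.358 in aging sham 3, 0.271 in young injured 2 and -0.0693 in young sham 1. It was -0.232 to 0.205 in the remaining libraries. The part of library quality in these differences was not tested.

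**Figure D5:**
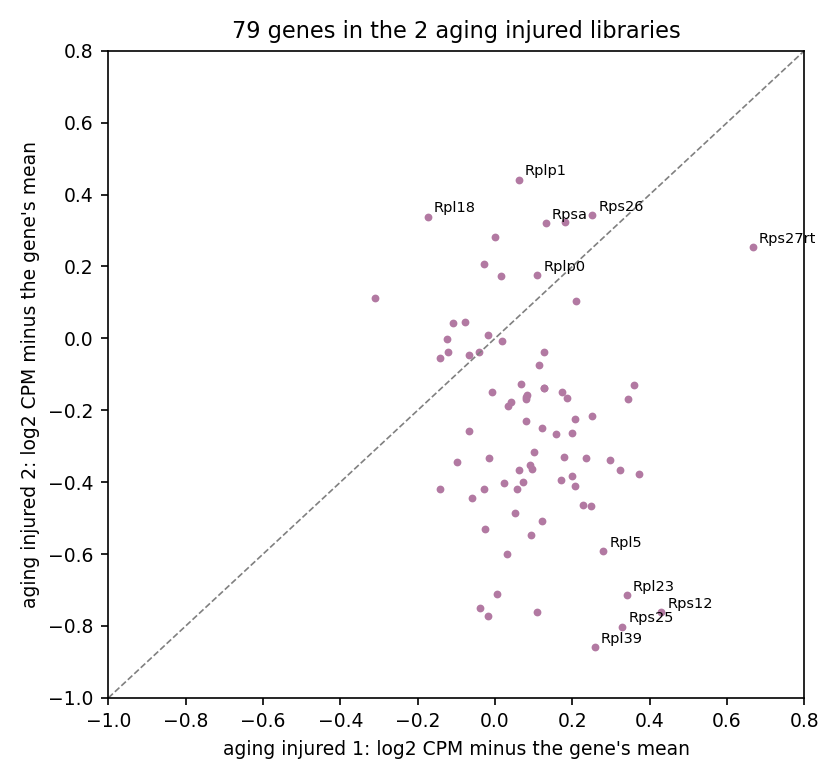
The 79 genes in aging injured 1 (horizontal) and aging injured 2 (vertical), as log2 CPM minus the gene's mean over 11 libraries, with the line of equality dashed. The cloud lies below the line for 61 genes, and Rps12, Rps25, Rpl39 and Rpl23 lie farthest below it.

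Calls in the aging injured group turned on which of its libraries was kept. Without aging injured 1, so that the lone library is assumed to vary like the other groups, 5 genes passed the edgeR adjusted p for injury in aging valves, among them Rps25 at -0.97, Rps27a at -0.92, Rpl36a at -0.86 and Rpl23 at -0.79 on the log2 scale. Of all genes 2.19% passed there. Without aging injured 2, 0 of the 79 passed and 46 lay above 0. For age in injured valves, 8 of the 79 passed without aging injured 1, among them Rpl39 at -1.01 as the 1 gene also past 2-fold, where 3.57% of all genes passed, and 0 passed without aging injured 2.

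Between young and aging sham valves, the ribosomal protein genes were nearly level, with the aging valves slightly higher for most. The median log2 difference was 0.09 against 0.02 over all genes, 67 genes were above 0 and 12 below, and the range was -0.17 to 0.34. The aging group lay wholly above the young for 21 of the 79 genes and wholly below for 1, against 11.8% and 9.08% of all genes. Rpl37a, of the large subunit, had the smallest p, at 125, 124 and 105 CPM in young and 141, 159 and 135 CPM in aging sham valves, a difference of 0.30 ± 0.15 (edgeR adjusted p = 0.575). Rpl38, a large subunit protein known for its part in the translation of Hox mRNAs during skeletal patterning, was at 42.4, 49.3 and 57.0 CPM and 58.4, 66.7 and 59.9 CPM (0.31 ± 0.17), and Rps13 at 87.5, 102 and 93.8 CPM and 103, 123 and 109 CPM (0.24 ± 0.13). On the low side were Rpl18 at -0.12 ± 0.16, Rplp0 at -0.09 ± 0.13 and Rps27rt at -0.17 ± 0.24. The young sham libraries serve in this comparison and in that of injury in young valves, and the aging sham libraries in this one and in that of injury in aging valves, so the values are not independent.

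Between young and aging injured valves the median was -0.12 against -0.04 over all genes, with 17 genes above 0 and 62 below. The smallest p below 0 were those of Rps19 at -0.44 ± 0.17, Rplp2 at -0.56 ± 0.22 and Rpl24, of the large subunit, at -0.39 ± 0.16. Above 0 they were Rps27rt at 0.67 ± 0.27, Rps16 at 0.25 ± 0.16 and Rps26 at 0.23 ± 0.18. Non-overlapping groups were found for 1 gene higher and 8 lower in aging injured valves, against 9.89% and 14.5% of all genes. The smallest edgeR adjusted p of the 79 was 0.340.

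The difference of the injury effect between ages had a median of -0.24 over the 79 genes against -0.05 over all genes, with 14 above 0 and 65 below and a range of -0.80 to 0.83. Beside Rps19 and Rplp2, the smallest p below 0 was that of Rpl36a at -0.63 ± 0.25, and above 0 those of Rps27rt at 0.83 ± 0.36, Rps26 at 0.30 ± 0.24 and Rpl18 at 0.20 ± 0.24. The smallest edgeR adjusted p was 0.56. Without aging injured 2 the median of the 79 was -0.08, where that of all genes was -0.12, and without aging injured 1 it was -0.45.

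Within the ribosome, both subunits had similar values. The small and large subunit genes had medians of 0.11 and 0.09 in young injury, -0.13 and -0.12 in aging injury and 0.10 and 0.09 between ages in sham valves. The 10 Diamond-Blackfan anaemia genes among the 79 had medians of 0.13, -0.08 and 0.09, with 10, 4 and 9 of them above 0 and 0 past the adjusted p. Genes with a pyrimidine run at the start, such as Rplp2, Rps6 and Rpl13a printed above, and genes without one had medians of 0.10 and 0.13 in young injury, -0.12 and -0.14 in aging injury and 0.09 and 0.09 for age in sham valves, 23 against 36 genes. Between ages in injured valves the medians were -0.09 and -0.14, and for the interaction -0.21 and -0.27.

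Among proteins with roles outside the ribosome, Rpl5 and Rpl11, which bind the 5S ribosomal RNA and restrain Mdm2 when ribosome assembly fails, had small differences. Rpl11 was at 183, 183 and 185 CPM in the young sham, 211, 226 and 183 CPM in the young injured, 184, 198 and 190.4 CPM in the aging sham and 203 and 171 CPM in the aging injured libraries. Its log2 fold change was 0.17 ± 0.12 in young and -0.03 ± 0.14 in aging injury. Rpl5 was at 0.07 ± 0.19 and -0.17 ± 0.22, with aging injured libraries of 452 and 247 CPM, the highest and the lowest of all 11. Rps3, which sits at the mRNA entry channel and also acts in DNA repair, was at 0.14 ± 0.14 and -0.21 ± 0.16. Rpl13a, known as a translation silencer in interferon-treated myeloid cells, was at 0.09 ± 0.15 and -0.25 ± 0.16.

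Rps6, the subunit that S6 kinases phosphorylate, was among the steadiest of the 79. It stood at 489.8, 401 and 427 CPM in the young sham, 436, 454 and 422 CPM in the young injured, 433, 411 and 430.0 CPM in the aging sham and 489 and 392 CPM in the aging injured libraries, with fold changes of -0.0051 ± 0.13 and 0.05 ± 0.15 on the log2 scale. Its coefficient of variation (CV) over the 11 libraries was 7.35%, against a median of 11.6% over the 79. Rpl8, at 334, 334 and 322 CPM in the young sham, 364, 379 and 338 CPM in the young injured, 355, 375 and 352 CPM in the aging sham and 354 and 349 CPM in the aging injured libraries, had the lowest CV at 5.08%, followed by Rps15 at 6.41% and Rpl13 at 7.14%. The highest CV among genes with a median over 10 CPM were those of Rps12 at 22.2%, Rps28 at 21.7% and Rpl39 at 21.0%, and Rps27rt, at a median of 9.81 CPM, reached 25.5%. For Rps28, of the small subunit, the low value was that of young sham 1 at 52.1 CPM, with 67.4 to 124 CPM in the others.

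Rps4x, encoded on the X chromosome, was at 0.09 ± 0.14 in young and 0.04 ± 0.16 in aging injury, and Rpl41, the smallest ribosomal protein, at 0.33 ± 0.15 and 0.12 ± 0.17. Rpl3, which lies close to the catalytic centre of the large subunit, was at 0.15 ± 0.15 and -0.08 ± 0.17. Its paralog Rpl3l, which replaces it in heart and skeletal muscle, was outside the rule. Per 100 counts of Rpl3 there were 5.15, 10.7 and 14.8 counts of Rpl3l in young sham, 0.776, 3.07 and 11.3 in young injured, 3.88, 4.35 and 2.91 in aging sham and 5.45 and 3.93 in aging injured libraries. The highest ratios were in young sham 2 and 3 and young injured 3, the 3 libraries with the most cardiomyocyte signal. The remaining libraries did not keep the order of that signal throughout. Aging sham 1, at a marker mean of 0.63, had a lower ratio (3.88) than aging injured 1 (5.45), at -0.55. The lowest ratio, 0.776, was in young injured 1, at a marker mean of -0.86.

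Rpl22, of the large subunit, was at -0.08 ± 0.17 and -0.39 ± 0.19. For its paralog Rpl22l1 there were 10.2, 12.3 and 12.9 counts per 100 of Rpl22 in young sham and 16.7, 19.9 and 16.3 in young injured libraries, which did not overlap. In the aging mice the ratios were 15.6, 15.2 and 13.3 in sham and 14.6 and 13.8 in injured libraries, which did. The ratio of Rpl7l1 to Rpl7 did not overlap in young mice either. It was 12.36, 11.82 and 13.28 counts per 100 in sham and 13.67, 14.04 and 14.1 in injured libraries. The young ratios of Rpl3l to Rpl3, Rps27l to Rps27 and Rpl36al to Rpl36a overlapped. Among all genes tested, 9.54% had non-overlapping levels with the injured young valves higher, and such a share was not computed for ratios. The Rpl22l1 level itself was at 0.50 ± 0.22 on the log2 scale in young injury (edgeR adjusted p = 0.535). Of the 11 ribosomal protein genes outside the rule 9 could be tested, Rpl10l had 0 counts in every library, and 0 passed the adjusted p in any of the 5 comparisons. Fau was at 0.01 ± 0.17 and Rack1 at 0.18 ± 0.14 in young injury.

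Of the genes that serve ribosome production or share its mRNA class, 1 passed the adjusted p. Among 40 genes of ribosome assembly and RNA polymerase I, 28 lay above 0 for injury in young valves with a median of 0.11, and Bop1, which processes the ribosomal RNA of the large subunit, passed at any fold (0.55 ± 0.12, edgeR adjusted p = 0.0978). Bop1 was at 27.7, 27.7 and 28.1 CPM in the young sham, 35.6, 45.0 and 41.9 CPM in the young injured, 35.5, 34.5 and 36.4 CPM in the aging sham and 38.9 and 40.3 CPM in the aging injured libraries, so that all young injured libraries were above all young sham ones. It passed in 7 of 21 alternative fits, and leaving out any 1 library other than young injured 1, young injured 3 or aging injured 2 ended the call. Over these fits its fold change was 0.47 to 0.67 on the log2 scale and its adjusted p reached 0.438. For injury in aging valves the median of these 40 genes was -0.05 and 0 passed. Among them, Fbl, the methyltransferase of ribosomal RNA, was at 0.33 ± 0.18 in young injury, and Myc, a transcription factor that drives ribosome production, at 0.52 ± 0.32, neither past the adjusted p.

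Of 15 translation factors of the TOP class, among them Eef1a1, which delivers aminoacyl-tRNA, and Tpt1, 0 passed in any comparison, with medians of -0.06 in young injury, -0.03 in aging injury and -0.05 between ages in sham valves. The 77 tested proteins of the mitochondrial ribosome, a separate machine that translates mitochondrial mRNA, also had 0 past the adjusted p, with medians of -0.05, -0.05 and -0.14 in the same order.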

How the data were processed

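RNA of aortic valves from 11 mice, 1 mouse per library, was sequenced with 150 nt paired-end reads from 200 ng of RNA, per the labels' protocols. TopHat2 version 2.1.0 and the genome build mm10 are named in the submitters' processing notes. How reads were counted, with or without strand, and on which gene models is not given in the sources used here, which leaves reads of near-identical copies, overlapping and antisense genes uncertain. Counts for 46983 genes were deposited without normalization by the authors, and RPKM for 13526 genes were deposited beside them. Of the count columns, 1 matched no sample label and was not used.

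Counts were tested with edgeR 4.0.16 in R 4.3.3: filterByExpr with a minimum count of 10 left 19366 genes, libraries were scaled by TMM, and the quasi-likelihood F test was fitted to 4 group means over all 11 libraries. P-values were adjusted by Benjamini-Hochberg over all genes tested, and a call needed an adjusted p under 0.1 and a fold over 2, the thresholds that the series gives. SE was obtained from each log2 fold change and the root of its F statistic. Deviations are log2 CPM with a prior count of 2 minus the gene's mean. The fits were run on simulated counts with changes planted for injury in young valves, in genes with ample counts. The simulated spread between libraries was set below that of these data, whose common biological coefficient of variation was 0.377. That run checked the code, and it cannot tell how many changes would be found at the spread of these data. Replicate numbers were not treated as pairs in the main fit. Over 15 pairs of libraries with the same number, deviations from group means correlated at -0.13 to 0.25. Of these, 1 was over 0.1, that of young sham 3 and young injured 3. Pairs with unlike numbers were not set beside them, so this check cannot decide whether libraries were paired.

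The ribosomal protein genes, the gene lists and the rule for named genes were chosen with earlier results of these data known. Named were, per comparison, the 3 genes with the smallest p in each direction, 16 genes chosen by role, the 3 highest and lowest by median RPKM and the 3 with the largest CV above a median of 10 CPM. Other genes, such as Rps25, Rpl23 and Rpl8, were named after their values were seen, and some genes that enter the counts are not reported here by name. Alternatives were DESeq2 1.42.0, limma-voom (limma 3.58.1), log2(RPKM + 0.5) in limma, other scalings, no filter, fewer groups, a replicate block and leaving out libraries. Transcript length and GC content came from GENCODE M21 and start sequences from RefSeq (GRCm38.p6).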

Additional observations from a re-analysis of the deposited data

How the results depend on the processing

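The design allowed 21 alternative fits for injury in young valves, 20 for injury in aging valves, 21 for age in sham valves, 20 for age in injured valves and 19 for the interaction. In these the count of ribosomal protein genes past the adjusted p was 0, except for injury in aging valves and age in injured valves without aging injured 1. Leaving out 1 library at a time gave 0 to 5 genes past the adjusted p for injury in aging valves, and 0 to 8 for age in injured valves, of which 0 to 1 were also past 2-fold. Over the same fits the median log2 fold change of the 79 genes was -0.32 to 0.036 for injury in aging valves, -0.32 to 0.027 for age in injured valves and -0.45 to -0.084 for the interaction. The cause was not tested. Library totals in place of TMM gave -0.41 for the interaction, where the median of all genes moved from -0.05 to -0.21, and gave 0.22 for injury in young valves, where that of all genes was 0.13. The cardiomyocyte mean as a covariate gave -0.10 for the interaction, -0.045 for age in sham valves and -0.0068 for injury in young valves. With a replicate block the medians were 0.09 for injury in young valves, -0.18 for injury in aging valves, 0.10 for age in sham valves, -0.17 for age in injured valves and -0.29 for the interaction, and 0 genes passed. The block moved the count of all genes past the adjusted p for injury in young valves from 133 to 74. DESeq2 gave 612 there, limma on RPKM 335, totals without TMM 269, the fit of the young groups alone 11, and fits without 1 library 16 to 725. For 25 genes, 59 pairs of a gene and a comparison were followed, over both injury comparisons and that of age among sham valves. Not every gene was followed in each of these comparisons, and genes named for a small p were among them. Of the 1220 alternative values, 53 changed sign. Of the 1220 values 2 passed the adjusted p, those of Rps27a and Rpl36a for injury in aging valves without aging injured 1.

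Depth did not limit these genes, which had at least 184 counts in each library. The limits are 2 aging injured libraries that differ, and heart muscle and smooth muscle markers in the tissue. Others are a gene family with many near-identical copies, and a measure of mRNA that does not show translation.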
